A study of Mus musculus with 32 samples.

Results

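The 7 genes described here are Nos2 and 6 further genes of arginine and nitric oxide metabolism, Nos3, Gch1, Slc7a2, Arg2, Ass1 and Asl. Nos2 was selected on its measured counts, because of a very large rise between 16 h and 28 h in HL-1 cells, and the other members were chosen by function. All 7 have a row in both deposited count tables, which list 27843 genes for AML12 and 55414 genes for HL-1. Because the choice of Nos2 used the time contrasts of HL-1, its values in them are given as a description, with no test.

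Nitric oxide synthases make nitric oxide from arginine. The inducible enzyme, encoded by Nos2, is controlled mainly through its transcript level, which in hepatocytes, macrophages and heart muscle cells is known to respond to interferon, interleukin and NF-kB signals, and glucocorticoids are known to restrain it. The endothelial enzyme, encoded by Nos3, is regulated largely after translation. Both need the cofactor tetrahydrobiopterin, whose synthesis starts with GTP cyclohydrolase (Gch1). Slc7a2 encodes a cationic amino acid transporter that brings arginine into the cell, Ass1 and Asl encode the pair of enzymes that rebuild arginine from citrulline, and Arg2 encodes the mitochondrial arginase, which consumes it.

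Total RNA of 2 mouse cell lines was sequenced in 32 libraries, 8 groups of 4. AML12, a mouse hepatocyte line, was taken at 17 h or 25 h under control treatment or under DEX treatment, an abbreviation that the labels do not spell out. HL-1, a line labelled as cardiomyocytes, was taken at 16 h or 28 h. All HL-1 groups had received medium derived from AML12 cells, in the controls without DEX synchronization of those cells and in the CM (conditioned medium) groups with it. Total counts ran from 15 to 17.5 M (mega) per library in AML12 and from 15.7 to 19.3 M in HL-1. No label says whether the 4 libraries of a group are separate cultures of the line. The p-values therefore cover the spread among these libraries, which could be technical, and nothing wider. Each time is also 1 set of libraries, and any batch that goes with time cannot be told apart from it. In the table of HL-1 the cardiomyocyte markers summed to 883 to 1190 CPM per library (CPM, the counts of a gene relative to library size after TMM scaling), carried by Gja1 and Des, while Pln was at 0 counts in all 4 groups and only 3 of 10 markers reached 1 CPM. In AML12 the hepatocyte factor Hnf4a averaged 205 CPM. It was the top gene of the 8 hepatocyte markers in that table, of which only 3 reached 1 CPM in controls of each time. With DEX 5 reached it at 17 h and 6 at 25 h. AML12 DEX 17 h replicate 2 and HL-1 control 16 h replicate 3 stood apart from their groups, as shown by a chi-square over genes, per degree of freedom, of 13.7 to 18.2 and 8.06 to 16.7 in pairs with the other libraries of their group. Pairs within groups that held neither of them gave 2.06 to 9.81.

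In GENCODE M21 on GRCm38, Nos2 (ENSMUSG00000020826) lies on chromosome 11 from 78920787 to 78960254, on the plus strand. Nos3 (ENSMUSG00000028978) lies on chromosome 5 from 24364810 to 24384474, plus strand, and shares 1040 exon bases with the antisense gene Gm15587 and 294 with Atg9b. Gch1 (ENSMUSG00000037580) lies on chromosome 14 from 47153895 to 47189413, minus strand, and Slc7a2 (ENSMUSG00000031596) on chromosome 8 from 40862396 to 40922308, plus strand, with 635 exon bases shared with the lincRNA Gm26584. Arg2 (ENSMUSG00000021125) lies on chromosome 12 from 79130777 to 79156301, plus strand, and shares 116 exon bases with Gm48780 and 285 with Vti1b. Ass1 (ENSMUSG00000076441) lies on chromosome 2 from 31470207 to 31520672, plus strand, and Asl (ENSMUSG00000025533) on chromosome 5 from 130011258 to 130029247, minus strand. Since the strand setting of the counting is not given in the sources used here, reads of Nos3, Slc7a2 and Arg2 cannot be told apart from those of the genes that overlap their exons. Nos2, Ass1, Asl and Gch1 share no exon bases with another gene.

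Promoter windows from RefSeq (GRCm38.p6, 250 bases before to 50 after the gene start) were matched for 2 of the 7 genes, Ass1 and Gch1. Windows are printed for all members that had one. The windows are chr2:31470020-31470319 on the plus strand for Ass1 and chr14:47189364-47189663 on the minus strand for Gch1, 5′ to 3′ in the gene's direction. Capitals mark the motif matches.
Ass1: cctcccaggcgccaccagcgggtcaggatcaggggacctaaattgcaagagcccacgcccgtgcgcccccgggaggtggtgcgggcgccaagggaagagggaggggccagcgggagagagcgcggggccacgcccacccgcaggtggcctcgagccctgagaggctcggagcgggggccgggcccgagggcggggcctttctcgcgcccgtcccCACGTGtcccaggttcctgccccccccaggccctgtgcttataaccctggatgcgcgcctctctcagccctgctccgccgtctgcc
Gch1: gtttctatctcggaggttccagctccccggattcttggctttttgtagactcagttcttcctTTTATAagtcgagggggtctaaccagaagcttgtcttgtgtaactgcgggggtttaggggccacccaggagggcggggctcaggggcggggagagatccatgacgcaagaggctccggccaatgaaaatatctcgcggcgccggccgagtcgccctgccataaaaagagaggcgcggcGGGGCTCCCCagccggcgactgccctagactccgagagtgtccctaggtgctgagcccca
In Ass1 the capitals are an E-box (CACGTG) at positions -36 to -31 from the RefSeq start. That start lies inside the gene as drawn in GENCODE M21, whose start for Ass1 is farther upstream, so the E-box falls within the M21 gene. In Gch1 they are a TATA box match on the opposite strand (TTTATA, the reverse complement of TATAAA) at -188 to -183 and a match to the NF-kB consensus (GGGGCTCCCC) at -10 to -1. Both strands were searched, and the matches do not overlap. Of 32851 windows of the same length, 7.15% held the E-box, 13.6% the TATA box and 4.51% the NF-kB consensus. Neither window held the interferon-stimulated element (GAAANNGAA, in 8.56% of all windows), the C/EBP motif (TTGCNNAA, 10.8%), the glucocorticoid receptor motif (AGAACA, 19%) or the D-box (TTANNTAA, 6%). A match is a description of the letters and not a site of binding.

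Nos2 was expressed in AML12 cells in all 4 groups, and in HL-1 cells it was close to 0 at 16 h and expressed at 28 h. In AML12 control cells of 17 h it stood at 51.4, 58.9, 50.7 and 64.8 CPM in replicates 1 to 4, and in DEX cells of 17 h at 11.2, 18.0, 13.6 and 14.7 CPM. At 25 h the controls gave 112, 118, 123 and 118 CPM and the DEX cells 83.6, 85.9, 79.8 and 53.3 CPM. Every DEX library therefore lay below every control library of its time, and the 25 h libraries of each treatment lay above those of 17 h. In HL-1 cells at 16 h the control libraries held 1, 0, 0 and 0 counts of Nos2 and the CM libraries 0, 1, 2 and 0. At 28 h the controls held 768, 821, 1052 and 640 counts (47.3, 51.4, 58.4 and 40.3 CPM) and the CM libraries 865, 854, 863 and 959 counts (49.3, 44.7, 48.4 and 51.7 CPM). At 28 h the media overlapped, and no library of 16 h came near those of 28 h.

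**Figure D1:**
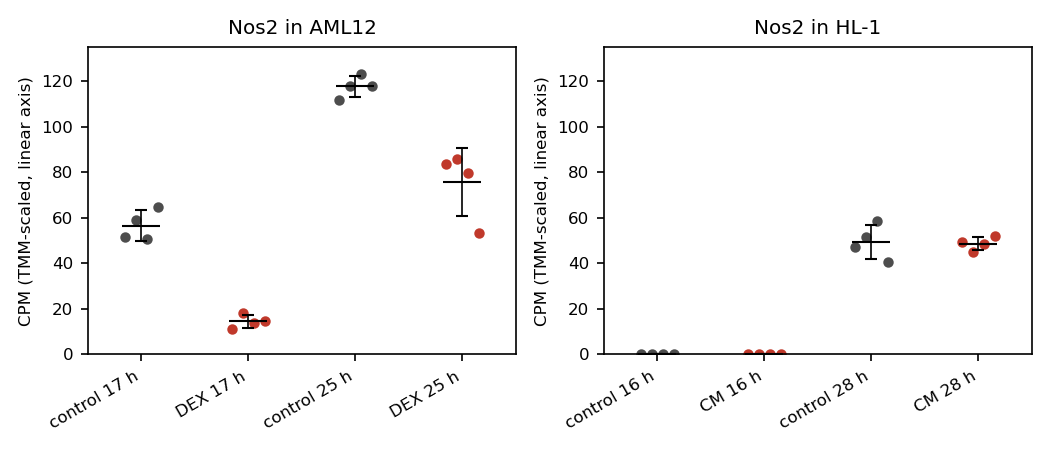
Nos2 in each library of AML12 (left) and HL-1 (right), in CPM on a linear axis. Points are libraries, horizontal lines group means and bars 1 SD (n = 4). DEX libraries lie below their controls at both times in AML12, and the 8 HL-1 libraries of 16 h lie at or next to 0 while those of 28 h lie between 40.3 and 58.4 CPM.

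By mean level (± SD, n = 4) the order of the groups was AML12 control 25 h (118 ± 4.61 CPM), AML12 DEX 25 h (75.6 ± 15.1), AML12 control 17 h (56.5 ± 6.72), HL-1 control 28 h (49.4 ± 7.58), HL-1 CM 28 h (48.5 ± 2.90), AML12 DEX 17 h (14.4 ± 2.83) and the 16 h groups of HL-1. Libraries of AML12 DEX 25 h and AML12 control 17 h overlapped, and so did those of AML12 control 17 h and both 28 h groups of HL-1. The lines come in separate tables that list different numbers of genes, and levels across lines are set side by side without a test.

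DEX lowered Nos2 in AML12 cells at 17 h and, by less, at 25 h. At 17 h it fell by 1.98 ± 0.13 on the log2 scale (± SE), which is 3.94-fold lower, with an adjusted p of 1.62e-11 from edgeR's quasi-likelihood test with Benjamini-Hochberg adjustment over 14114 genes. At 25 h it fell by 0.64 ± 0.11, 1.55-fold lower, with an edgeR adjusted p of 0.000142. The difference of the effects, 25 h minus 17 h, was 1.34 ± 0.17 with an edgeR adjusted p of 3.04e-06. Without replicate 2 of DEX 17 h, the library that stood apart and had the highest Nos2 of its group, the 17 h value was -2.11 and the difference 1.46. Replicate 4 of DEX 25 h was the lowest of its group, and without it the 25 h value was -0.51 with an edgeR adjusted p of 0.000130. Among all genes tested 17.9% fell and 20.5% rose with DEX at 17 h, 4.96% fell and 6.79% rose at 25 h, and the difference was above 0 for 7.91% and below 0 for 8.27%.

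Nos2 also rose between the times in AML12. In controls it rose by 1.06 ± 0.11 (2.08-fold, edgeR adjusted p = 3.93e-08) and in DEX cells by 2.40 ± 0.13 (5.28-fold, edgeR adjusted p = 2.00e-13). The contrasts of one line share libraries with each other, so these values are not independent of the DEX effects above. Of all tested genes, 22.1% rose and 21.4% fell with time in controls, and 27.8% rose and 28.2% fell in DEX cells.

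In HL-1 cells no fold of Nos2 between the media could be given at 16 h, because both groups were at or under a floor of 3 counts in 4 libraries. At 28 h the change with CM was -0.03 ± 0.08 on the log2 scale (edgeR adjusted p = 0.934), with a 95% interval of -0.21 to 0.16, so the media did not differ beyond the spread between libraries. Without replicate 3 of the 28 h controls, its highest library, the value was 0.07, and without replicate 2 of CM 28 h it was 0.01. The difference of the CM effect between times was not computed for Nos2, since the 16 h effect has no value.

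The rise for which Nos2 was chosen amounted to 3281 against 1 count in controls, a ratio of 3231 on TMM-scaled sizes with an exact 95% interval of 580 to 127673. With CM it was 3541 against 3 counts, a ratio of 1201 with an interval of 411 to 5827. Both intervals treat reads as independent, cover counting error only and do not include the spread between libraries. Reads are not independent molecules, so the intervals can be too narrow even for that error. The CM ratio rested on few reads, and without replicate 3 of CM 16 h, which held 2 of the 3 counts, it was 2693. The single count of the 16 h controls was in replicate 1, and without that library the group was at 0.

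Nos2 was the 1 tested gene with at most 10 counts over the 8 libraries of one time and at least 5 CPM at the other, and 0 genes showed the reverse, under limits chosen after the values were seen. Over both media its level went from 0.0272 to 48.9 CPM, a ratio of 1797. The next largest ratios were sought among genes with at least 5 CPM at 28 h, leaving out symbols of predicted genes or clones. They were 31.1 for Selenbp1, 23.5 for Acap1, 23.3 for Cd33, 22.2 for the carbonic anhydrase Car12 and 22.1 for adrenomedullin (Adm). These genes were detected at 16 h, for example Selenbp1 with 122 counts and Adm with 35.

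The genes whose levels followed Nos2 most closely over the 16 HL-1 libraries were ceruloplasmin (Cp) and Ndrg1, each with a Pearson r of 0.999 on log2(CPM + 0.5). P4hb, Ero1a, Klhl24, P4ha1, Bnip3l and Glis3 came next, with P4hb and Ero1a at 0.999 and the other 4 at 0.998. They were taken from 11670 tested candidates with a mean of at least 1 CPM in a group, again without symbols of predicted genes or clones. Cp averaged 158 and 153 CPM at 16 h (control and CM) and 645 and 661 CPM at 28 h, and Ndrg1 went from 95.9 and 102 to 737 and 733 CPM. These correlations describe mainly the step between the times, which the libraries of a time share, and 201 candidates reached an r of 0.99. None of the 8 was near 0 at 16 h.

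The listed markers of cell types in which nitric oxide synthases are well known were low in HL-1. In bulk RNA, fewer cells of a type and less RNA per cell cannot be told apart. The 13 macrophage markers summed to between 1.94 and 4.16 CPM per HL-1 library, most of it Cd68, and Adgre1, C1qa, C1qb and Tyrobp had 0 counts in all 4 groups. At 16 h the sums were 1.94 to 2.37 CPM in controls and 2.94 to 3.68 with CM, and at 28 h 2.63 to 4.16 and 2.51 to 3.78. Cd33, named above and in none of the marker lists, went from 0.402 CPM at 16 h to 9.34 CPM at 28 h over both media. Whether that rise bears on Nos2 was not tested. The 10 endothelial markers summed to between 0.562 and 2.41 CPM in HL-1, with Tie1, Emcn and Cldn5 at 0 counts in all 4 groups. Their sums were 0.710 to 1.25 and 0.562 to 1.07 CPM at 16 h (control and CM) against 1.70 to 2.25 and 1.05 to 2.41 CPM at 28 h, and the part of this rise in the changes of Nos2 and Nos3 was not tested. The hepatocyte markers, 9 of 10 of them in the HL-1 table, summed to between 5.01 and 10.4 CPM per HL-1 library, most of it Apob, and Alb, Ttr, Serpina1a, Fgb and Cyp2e1 had 0 counts in all 4 groups. Hnf4a had 1 count in the 8 HL-1 libraries of 28 h. In AML12 the table holds 9 of the 13 macrophage markers, which summed to between 29.8 and 58.1 CPM, mostly Mrc1. Mrc1 averaged 45.0 CPM in controls and 38.1 with DEX at 17 h, and 20.6 and 30.3 CPM at 25 h. Whether this bears on Nos2 was not tested.

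Among the other members, the cofactor gene Gch1 was expressed in both lines. In AML12 it stood at 26.5, 27.1, 27.1 and 26.6 CPM in controls of 17 h and at 31.5, 30.0, 30.8 and 30.8 CPM with DEX, groups that did not overlap. At 25 h it gave 27.6, 27.1, 27.4 and 26.6 CPM in controls and 25.3, 25.8, 24.6 and 28.8 CPM with DEX, groups that did. Gch1 thus rose slightly with DEX at 17 h, by 0.20 ± 0.05 on the log2 scale (edgeR adjusted p = 0.00367), where Nos2 fell. At 25 h the DEX effect was -0.06 ± 0.05 (edgeR adjusted p = 0.572). The difference of the effects was -0.26 ± 0.07 with an edgeR adjusted p of 0.0186, but this call was lost with total counts only (-0.21, adjusted p = 0.0549) and without the low-count filter (-0.25, adjusted p = 0.109). Between the times Gch1 fell by 0.24 ± 0.05 in DEX cells (edgeR adjusted p = 0.000461) and stood at 0.02 ± 0.05 in controls (edgeR adjusted p = 0.795).

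In HL-1 cells Gch1 rose from 11.5 ± 0.943 to 17.3 ± 1.33 CPM in controls and from 12.2 ± 1.23 to 18.3 ± 1.96 CPM with CM between 16 h and 28 h (± SD, n = 4). The groups of the times did not overlap. The rises were 0.58 ± 0.09 in both media on the log2 scale, with edgeR adjusted p-values of 5.76e-06 and 3.13e-06. CM against control gave 0.09 ± 0.10 at 16 h and 0.08 ± 0.09 at 28 h (edgeR adjusted p = 0.841 and 0.754).

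The arginine transporter gene Slc7a2 was expressed in HL-1 and close to 0 in AML12. In HL-1 it gave 1.65, 1.31, 1.48 and 1.18 CPM in controls of 16 h and 1.75, 1.96, 2.50 and 1.63 CPM with CM. At 28 h it gave 3.76, 4.32, 3.83 and 6.11 CPM in controls and 4.79, 3.67, 4.26 and 3.18 CPM with CM. All 28 h libraries lay above all 16 h libraries, and the media overlapped at each time. The rise with time was 1.66 ± 0.20 in controls (3.17-fold, edgeR adjusted p = 9.75e-08) and 1.01 ± 0.19 with CM (2.02-fold, edgeR adjusted p = 4.24e-05). The difference between these, which is also that of the CM effects, was -0.65 ± 0.28 and did not pass (edgeR adjusted p = 0.636). CM against control was 0.47 ± 0.23 at 16 h (edgeR adjusted p = 0.447) and -0.18 ± 0.17 at 28 h (edgeR adjusted p = 0.728). In AML12 it had 7 to 11 counts per group of 4 libraries and was not kept for testing.

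The genes of the pair that rebuilds arginine from citrulline went different ways. Ass1, which encodes argininosuccinate synthase, had 1 count in all 16 AML12 libraries, in control 17 h replicate 3. In HL-1 it gave 30.7, 29.3, 31.1 and 34.0 CPM in controls of 16 h and 38.6, 37.5, 38.5 and 41.0 CPM with CM, groups that did not overlap. At 28 h the controls gave 18.7, 25.7, 22.4 and 25.7 CPM and the CM libraries 30.4, 26.4, 25.5 and 26.0 CPM, groups that did. Ass1 was the 1 member that rose with CM at 16 h, by 0.32 ± 0.08 on the log2 scale (1.24-fold, edgeR adjusted p = 0.0262), among 14450 genes of which 0.83% rose and 1.2% fell. This call was not robust to single libraries. Leaving out any 1 of 6 of the 8 libraries (controls 1, 2 or 3, CM 1, 3 or 4) moved the adjusted p to between 0.0544 and 0.117, with values of 0.28 to 0.31.

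At 28 h Ass1 stood at 0.23 ± 0.08 with CM (edgeR adjusted p = 0.200), and 0 of the 6 tested members passed, against 0.706% of all genes that rose and 1.22% that fell. In edgeR 1 of the 6, Ass1, had an unadjusted p under 0.05, and DESeq2 and limma-voom also called 0. Without control 28 h replicate 1 the value of Ass1 was 0.14. The number of genes called over the whole table at 28 h was 278, and it was 179 without that library and 170 without CM 28 h replicate 3. The CM effect did not differ between times for any of the 5 members with a test (0 called by edgeR, DESeq2 and limma-voom, 1 with an unadjusted p under 0.05 in edgeR, Slc7a2), where 0.104% of all genes were above 0 and 0.173% below. For Ass1 that difference was -0.09 ± 0.11, with a 95% interval of -0.33 to 0.16.

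Ass1 fell between 16 h and 28 h in both media, by 0.44 ± 0.08 in controls (edgeR adjusted p = 4.60e-05) and by 0.52 ± 0.08 with CM (edgeR adjusted p = 1.55e-06). Asl, which encodes argininosuccinate lyase, rose over the same interval. It went from 32.5 ± 1.85 to 45.0 ± 1.86 CPM in controls and from 31.2 ± 1.08 to 43.6 ± 2.82 CPM with CM (± SD, n = 4), and the times did not overlap. The rises were 0.47 ± 0.06 and 0.48 ± 0.06 on the log2 scale (edgeR adjusted p = 8.35e-08 and 3.77e-08). In AML12 Asl moved the other way with time, from 76.4 ± 2.52 to 63.9 ± 2.51 CPM in controls and from 76.6 ± 8.80 to 62.3 ± 2.19 CPM with DEX. The falls were 0.26 ± 0.06 and 0.30 ± 0.06 (edgeR adjusted p = 0.00140 and 0.000199), and the value in DEX cells was -0.38 without replicate 2 of DEX 17 h. That library, at 63.4 CPM, was the 1 of its group that overlapped with 25 h. DEX left Asl at 0.00 ± 0.06 at 17 h and -0.04 ± 0.06 at 25 h, with 95% intervals of -0.13 to 0.14 and -0.17 to 0.10, and CM at -0.06 ± 0.06 and -0.05 ± 0.06 (edgeR adjusted p from 0.792 to 0.962).

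**Figure D2:**
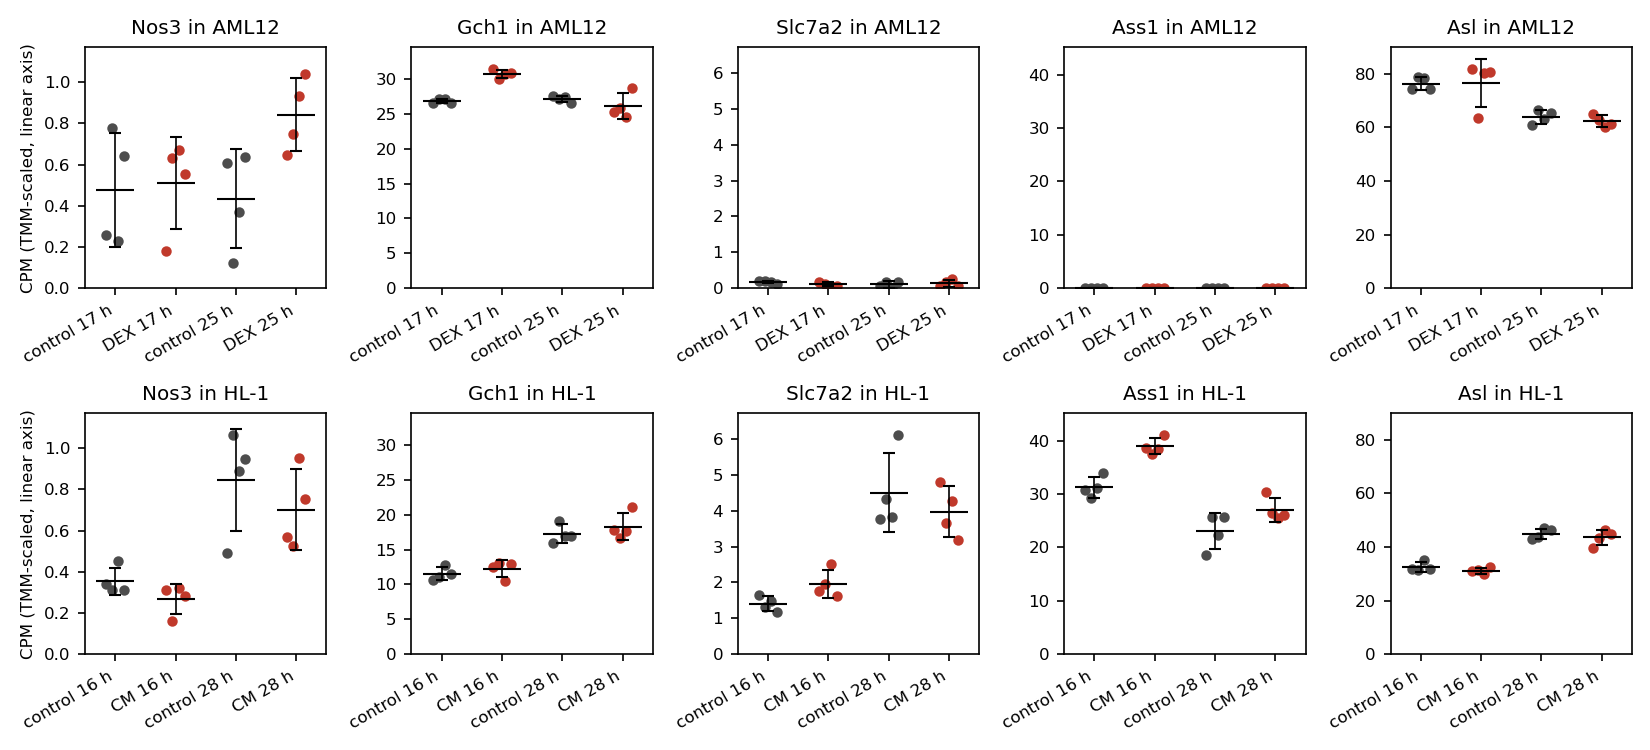
CPM of 5 members in each library, AML12 in the upper and HL-1 in the lower row, on linear axes that start at 0 and are shared between the lines for each gene. Points are libraries, lines group means and bars 1 SD (n = 4). Slc7a2 and Ass1 lie at or near 0 in AML12, and in HL-1 Ass1 is lower and the other 4 genes are higher at 28 h than at 16 h.

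Nos3 and Arg2 were detected at low levels. Nos3 had 28 to 56 counts per group in AML12 and 20 to 56 in HL-1. In HL-1 it gave 0.341, 0.313, 0.452 and 0.312 CPM in controls and 0.310, 0.163, 0.320 and 0.281 CPM with CM at 16 h. At 28 h it gave 0.493, 1.06, 0.888 and 0.945 CPM in controls and 0.570, 0.524, 0.953 and 0.755 CPM with CM, above all 16 h libraries. The rises were 1.24 ± 0.34 and 1.35 ± 0.36 on the log2 scale (edgeR adjusted p = 0.00260 and 0.00172). In AML12 the DEX libraries of 25 h (0.645 to 1.04 CPM) lay above their controls (0.121 to 0.636 CPM), but the change of 0.94 ± 0.40 did not pass (edgeR adjusted p = 0.143), and at 17 h it was 0.11 ± 0.44. The 1040 exon bases shared with Gm15587 leave the source of these few reads uncertain. Arg2 had 2 to 6 counts per group in AML12 and 6 to 8 in HL-1, too few for a test in either line.

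Per kilobase of merged exons, the scale on which genes can be set against each other, the order of the members differed between the lines. In AML12 controls of 17 h Asl stood at 15.8 ± 0.522, Nos2 at 12.8 ± 1.52 and Gch1 at 4.29 ± 0.0496 CPM per kilobase, with Nos3 at 0.115 ± 0.0667 and Slc7a2, Arg2 and Ass1 below it. At 25 h Nos2, at 26.7 ± 1.05, was above Asl, at 13.2 ± 0.520, and with DEX at 17 h it was below Gch1 (3.26 ± 0.640 against 4.92 ± 0.0927). In HL-1 controls of 16 h Ass1 led with 13.0 ± 0.817 CPM per kilobase, followed by Asl (6.72 ± 0.382) and Gch1 (1.85 ± 0.151). At 28 h Nos2 (11.2 ± 1.72), Ass1 (9.58 ± 1.39) and Asl (9.31 ± 0.385) lay within the spread of their libraries. These orders depend on the length used. Over the longest transcript in place of merged exons, Asl (18.6) and Ass1 (13.6) stood above Nos2 (11.8) in HL-1 controls of 28 h, and Asl was at 31.6 and Gch1 at 7.64 CPM per kilobase in AML12 controls of 17 h.

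Counted over the members, 4 had a test in AML12 and up to 6 had one in HL-1. In AML12, DEX raised 1 (Gch1) and lowered 1 (Nos2) at 17 h and lowered 1 (Nos2) at 25 h, where DEX raised 0. Of all genes 20.5% rose and 17.9% fell at 17 h and 6.79% rose and 4.96% fell at 25 h, so 1 of 4 each way at 17 h was near the background. The difference was above 0 for Nos2 and below 0 for Gch1. With time 1 rose (Nos2) and 1 fell (Asl) in controls, and 1 rose (Nos2) and 2 fell (Gch1 and Asl) in DEX cells, where 22.1% and 27.8% of all genes rose and 21.4% and 28.2% fell. In HL-1 the 5 members other than Nos2 that were tested all changed with time in each medium, 4 rising (Nos3, Gch1, Slc7a2 and Asl) and 1 falling (Ass1), where 31.5% of all genes rose and 31.3% fell in controls and 32.6% rose and 32.9% fell with CM.

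**Figure D3:**
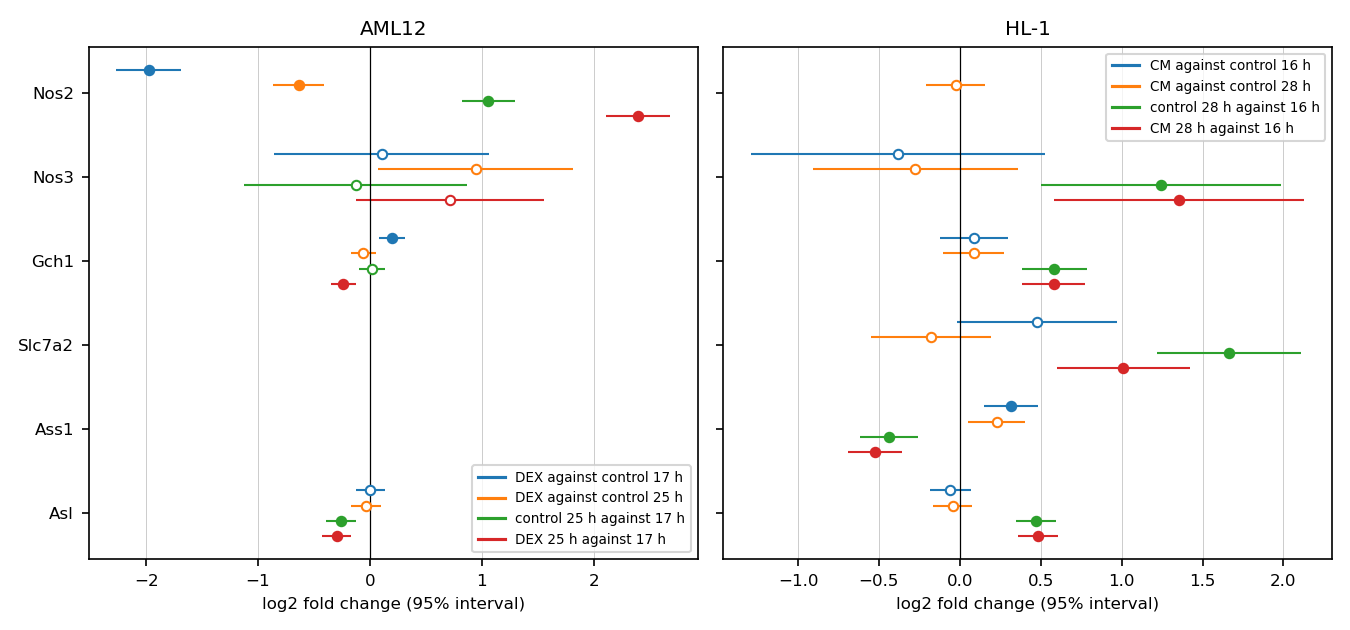
Log2 fold changes of the tested members from edgeR (16 libraries per line), with 95% intervals built from the estimate and its SE. AML12 is left and HL-1 right, on separate axes. Filled points passed an adjusted p of 0.05 and open points did not. Nos2 has no value for the HL-1 time contrasts and for CM at 16 h. The DEX effects on Nos2 lie below 0 at both times, and the single filled CM effect in HL-1 is that of Ass1 at 16 h.

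A wider list of 39 genes of arginine supply, cofactor synthesis, arginine use, synthase partners and nitric oxide targets surrounded the members, with 27 of them kept by the low-count filter in AML12 and 29 in HL-1. It was chosen with earlier results of these data known. With DEX at 17 h 8 rose (29.6% of 27, against 20.5% of all genes) and 3 fell (11.1% against 17.9%), with a median log2 fold change of 0.06 against 0.00 over all genes. Those with the smallest p were the proline and ornithine pathway genes Aldh18a1 (0.59 ± 0.04) and Pycr1 (0.70 ± 0.06), the arginine transporter Slc7a1 (0.63 ± 0.05) and ornithine decarboxylase, Odc1 (0.50 ± 0.05), all of which rose. Slc7a1 went from 67.6 to 105 CPM. At 25 h 5 rose (18.5% against 6.79% of all genes) and 0 fell, against 4.96% (edgeR, 11 with an unadjusted p under 0.05, 5 called by DESeq2 and 5 by limma-voom). They included Pycr1 (0.60 ± 0.08), Odc1 (0.33 ± 0.05) and the ornithine aminotransferase Oat (0.22 ± 0.04). The DEX effect differed between the times for 6, above 0 for 3 and below 0 for 3 (11.1% each, against 7.91% and 8.27% of all genes), with Aldh18a1 at -0.50 ± 0.06, Slc7a1 at -0.58 ± 0.07 and Slc3a2, the partner chain of amino acid transporters, at -0.23 ± 0.06. Slc7a7 stood at 0.35 ± 0.09.

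Between 17 h and 25 h in AML12, 2 genes of the wider list rose and 9 fell in controls (7.41% and 33.3%, against 22.1% and 21.4% of all genes). In DEX cells 5 rose and 11 fell (18.5% and 40.7%, against 27.8% and 28.2%), with medians of -0.15 in both against -0.00496 and 0.00164 over all genes. Pycr1 (-1.20 ± 0.08), Aldh18a1 (-0.60 ± 0.04), Slc7a1 (-0.43 ± 0.05) and the Gch1 feedback protein gene Gchfr (-0.78 ± 0.11) fell in controls. In DEX cells Aldh18a1 (-1.10 ± 0.04), Slc7a1 (-1.01 ± 0.05), Pycr1 (-1.31 ± 0.07) and caveolin, Cav1 (-0.54 ± 0.06), fell. Nos2 rose in both.

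In HL-1, 0 of 29 passed for CM at 16 h (edgeR, 4 with an unadjusted p under 0.05, 0 by DESeq2 and 0 by limma-voom) and 0 at 28 h (8 with an unadjusted p under 0.05, 2 by DESeq2 and 2 by limma-voom). At 28 h the smallest adjusted p belonged to Gchfr (-0.23 ± 0.06, edgeR adjusted p = 0.0685). For the difference of the CM effects 0 passed as well (1 with an unadjusted p under 0.05, 0 by DESeq2 and 0 by limma-voom). Of all genes 0.83% rose and 1.2% fell with CM at 16 h, and 0.706% rose and 1.22% fell at 28 h. The difference was above 0 for 0.104% and below 0 for 0.173%, so each count of 0 lay near the background. With time 12 rose and 12 fell in controls (41.4% each, against 31.5% and 31.3% of all genes) and 10 rose and 12 fell with CM (34.5% and 41.4%, against 32.6% and 32.9%), with medians of 0.00 in both, as over all genes. Odc1 fell by 1.41 ± 0.05 in controls and 1.60 ± 0.05 with CM, and its counterpart Azin2, an antizyme inhibitor, rose by 1.74 ± 0.08 and 1.84 ± 0.07. Ddah2, which encodes an enzyme that degrades methylarginine inhibitors of the synthases, rose by 1.32 ± 0.08 and 1.17 ± 0.08.

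A second list held 31 cytokine, receptor and NF-kB genes known to act upstream of Nos2 or to respond beside it, of which 24 passed the low-count filter in AML12 and 26 did in HL-1. This list too was chosen with earlier results of these data known, so its shares are not independent of them. With DEX at 17 h 4 rose (16.7%, against 20.5% of all genes) and 13 fell (54.2% against 17.9%), with a median of -0.25 against 0.00 over all genes. The prostaglandin synthase gene Ptgs2 (-1.64 ± 0.08), the NF-kB cofactor gene Nfkbiz (-0.69 ± 0.04), the kinase gene Jak2 (-0.73 ± 0.05) and Cd14 (-0.61 ± 0.04) had the smallest p. At 25 h 1 rose and 3 fell (4.17% and 12.5%, against 6.79% and 4.96% of all genes), Ptgs2 (-0.65 ± 0.07), Lcn2 (-0.62 ± 0.07) and Nfkb1 (-0.23 ± 0.05) falling and Cd14 rising (0.14 ± 0.04). The difference was above 0 for 11 and below 0 for 4 (45.8% and 16.7%, against 7.91% and 8.27% of all genes), with Ptgs2 at 0.98 ± 0.11, Cd14 at 0.75 ± 0.06, Jak2 at 0.65 ± 0.07 and Nfkbiz at 0.59 ± 0.06.

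With time in AML12 15 rose and 4 fell in controls (62.5% and 16.7%, against 22.1% and 21.4% of all genes) and 15 rose and 6 fell with DEX (62.5% and 25%, against 27.8% and 28.2%). The medians were 0.21 and 0.43, against -0.00496 and 0.00164 over all genes. The NF-kB inhibitor gene Nfkbia (1.05 ± 0.06), the interferon factor gene Irf1 (1.01 ± 0.06) and the NF-kB subunits Nfkb2 (0.54 ± 0.04) and Relb (0.52 ± 0.05) rose in controls. Irf1 (1.60 ± 0.06), Cd14 (1.09 ± 0.04), Nfkb1 (0.90 ± 0.05) and Nfkbiz (0.81 ± 0.04) rose in DEX cells.

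In HL-1 20 of 26 rose and 0 fell between 16 h and 28 h in controls (edgeR, 20 with an unadjusted p under 0.05, 20 called by DESeq2 and 20 by limma-voom), and 19 rose and 0 fell with CM (20 with an unadjusted p under 0.05, 19 by DESeq2 and 20 by limma-voom). The shares that rose were 76.9% and 73.1%, where 31.5% and 32.6% of all genes rose and 31.3% and 32.9% fell. The medians were 0.67 and 0.52 against 0.001 and -0.0045 over all genes. Nfkbiz (1.90 ± 0.05 in controls and 1.66 ± 0.05 with CM), Jak2 (0.82 ± 0.04 and 0.83 ± 0.04) and Nfkb1 (0.67 ± 0.03 and 0.61 ± 0.03) were among them in both media. Nfkbia rose by 1.33 ± 0.07 in controls and Cebpd, a C/EBP factor gene, by 2.62 ± 0.16 with CM. In controls of 16 h Nfkb1 stood at 142 CPM and Jak2 at 104 CPM, while Lcn2 stood at 0.201 CPM, and 23 of the 31 listed genes reached 1 CPM there against 26 at 28 h. The interferon genes Ifng and Ifnb1 and the factor gene Irf8 had 0 counts in all 4 HL-1 groups.

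Between the media, 0 of the 26 genes rose and 7 fell (26.9%) with CM at 28 h, against 0.706% and 1.22% of all genes (edgeR, 12 with an unadjusted p under 0.05, 6 by DESeq2 and 7 by limma-voom), among them Ptgs2 (-0.53 ± 0.05, from 233 to 161 CPM), Il6 (-0.81 ± 0.13), Cd14 (-0.37 ± 0.07) and Il1a (-1.33 ± 0.25). At 16 h the lipocalin gene Lcn2 rose (3.20 ± 0.41, from 0.201 to 1.90 CPM) and the interleukin receptor gene Il1r1 fell (-0.29 ± 0.04). The difference of the CM effects passed for Ptgs2 (-0.52 ± 0.07), Il1r1 (0.35 ± 0.06) and Lcn2 (-2.99 ± 0.53). At 16 h 3.85% of the 26 genes rose and 3.85% fell, against 0.83% and 1.2% of all genes. The difference was above 0 for 3.85% and below 0 for 7.69%, against 0.104% and 0.173% of all genes.

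**Figure D4:**
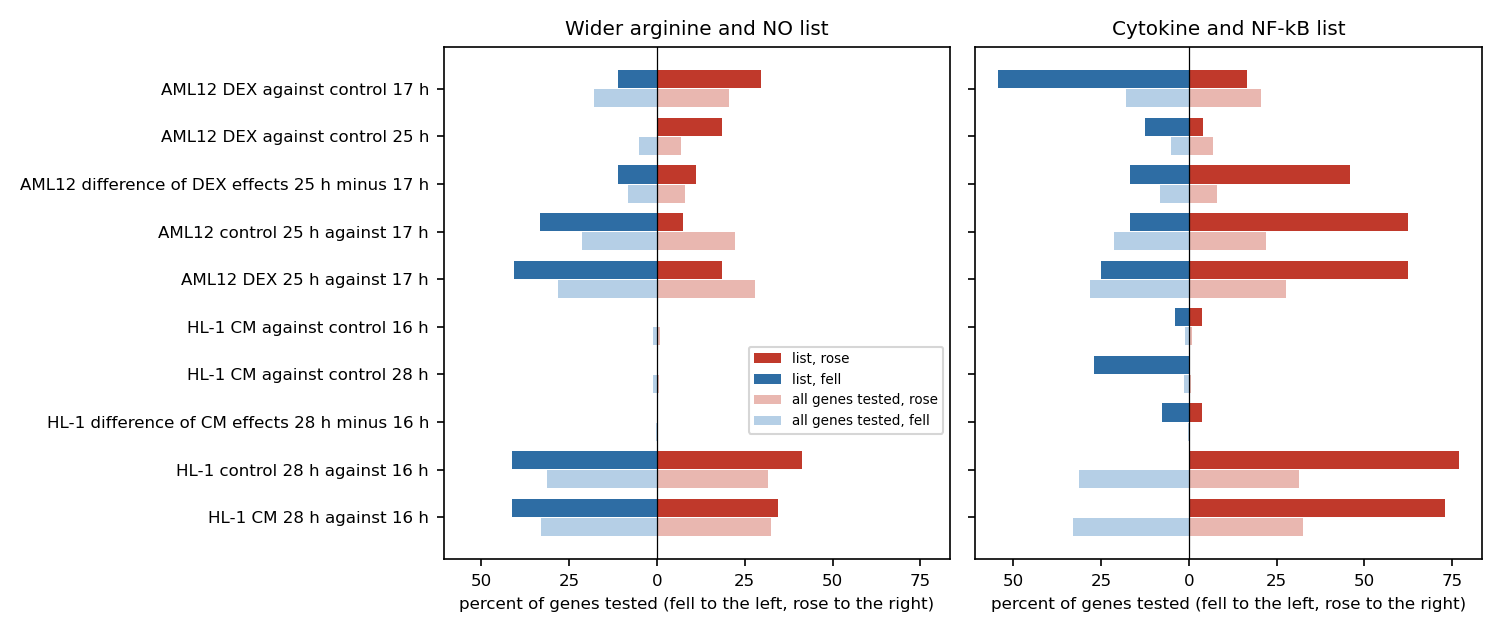
Percent of tested genes that rose (to the right) or fell (to the left) at an edgeR adjusted p of 0.05, for the wider arginine and nitric oxide list (left) and the cytokine and NF-kB list (right), beside the same share over all genes tested, in 10 contrasts. In the HL-1 time contrasts 20 and 19 of the 26 cytokine and NF-kB genes rose and 0 fell, and with DEX at 17 h 13 of 24 fell. Both lists were chosen with earlier results of these data known.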

How the data were processed

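The deposited values are whole-number read counts per gene, not normalized, in 1 table per cell line. Tools named in the submitters' processing notes are STAR and FastQC 0.11.8, and the builds named are mm10 and GRCm38. Which program counted the reads, with which strand setting and on which annotation, is not given in the sources used here. RNA was extracted with TRIzol and libraries were made with an NEBNext Ultra II RNA kit, per the labels' protocols. All per-sample columns were mapped by name (0 unmapped), and each line was analysed on its own. The columns of the HL-1 CM libraries are named DEX, and the labels' descriptions tie them to titles with CM.

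Genes kept by edgeR's filterByExpr by group (14114 and 14450) entered edgeR 4.0.16 (R 4.3.3), with TMM scaling, the quasi-likelihood F test, 1 mean per group over the 16 libraries of a line and calls at a Benjamini-Hochberg adjusted p of 0.05. The test was tried on simulated counts. Slc7a2, Arg2 and Ass1 in AML12 and Arg2 in HL-1 did not pass the filter. Intervals are at 95%. Those of fold changes were built from the edgeR estimate, an SE taken back from its F statistic and the residual degrees of freedom. They can therefore disagree with the p of the test. Genes named were the 7 members, up to 4 genes per list and contrast with the smallest p (the values of 1 listed gene are not reported here, while list counts include it), and the 8 genes most correlated with Nos2 in HL-1. Genes named in the searches by level or ratio in HL-1 were found after the values were seen. The members and lists were chosen with earlier results of these data known. Alternatives were DESeq2 1.42.0, limma-voom (limma 3.58.1), scaling by RLE or by total counts, testing without the filter, a block for the replicate number, a fit of the 8 libraries of a comparison alone, and each library left out in turn. Those for the list counts and for the ratio of Nos2 were added after seeing the data.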

Additional observations from a re-analysis of the deposited data

Results flagged for a closer look

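Asl stood at 63.4 CPM in AML12 DEX 17 h replicate 2, apart from 80.4 to 81.8 CPM in the other 3 libraries of its group, and at 35.2 CPM in HL-1 control 16 h replicate 3, apart from 31.3 to 31.7 CPM. The gap to the nearest library was 0.920 and 0.914 of the group's whole range, past Dixon's 95% critical value for 4 samples. Of 38 groups of member values tested, chance would put about 1 in 20 past it. These are the libraries that stood apart from their groups over all genes.

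The DEX effect in AML12 differed between 25 h and 17 h for Nos2, by 1.34 on the log2 scale, and for Gch1, by -0.26, each by a test of the difference itself in edgeR. The call for Gch1 was lost with total counts only and without the low-count filter.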

How the results depend on the processing

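Of 440 member values with 1 library left out, 403 kept their direction and their side of the threshold. Their size was not compared in this count. The only calls lost this way were those of Ass1 for CM at 16 h (6 of 8 libraries), so that 0 to 1 members were called there, against 1. The call of Gch1 for the difference of DEX effects was lost with total counts only and with no filter, leaving 1 member called in place of 2 under each. The wider list for CM at 28 h, at 0, went to 2 with no filter, 2 with DESeq2, 2 with limma-voom and 1 with only the 8 libraries compared, and to 0 to 1 with a library left out (1 without CM 28 h replicate 1). For CM at 16 h it went to 1 without control 16 h replicate 3, from 0 in the full set. The cytokine and NF-kB list with no filter held 5 genes for CM at 16 h, against 2, and 11 at 28 h, against 7. Over all genes, the difference of CM effects was called for 97 with no filter and 68 with DESeq2, against 40. The cause of these shifts was not tested. No member value that passed changed sign. The ratio of Nos2 without single libraries ran from 2435 to 3423 in controls and from 888 to 2693 with CM, and without control 16 h replicate 1 there was no count to divide by. The replicate number as a block gave 2 members called for DEX at 17 h and -1.98 for Nos2 there. Same-numbered libraries did not deviate together in every pair (correlations from -0.187 to 0.186), so the numbers were not used as a pairing. Depth limits Nos3, Arg2, Slc7a2 in AML12 and the 16 h groups of Nos2 in HL-1.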
